A study of Mus musculus with 6 samples.

Results

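Fatty acids are built in the cytosol from acetyl-CoA, and the genes described here supply that acetyl-CoA, turn it into fatty acids or control the enzymes that do so. The list held 10 genes, chosen by their function with earlier results of these data known. The tests of its genes may therefore not be independent of that choice. Acly was picked on its higher signal after doxycycline withdrawal in these same arrays. Acaca, which encodes acetyl-CoA carboxylase, and Acsl1, a long-chain acyl-CoA synthetase, matched no probe set in the platform annotation and were dropped. The remaining 8 genes, of 8251 genes named on the array, were read by 13 probe sets, and all 13 passed the filter on dim signals. Because the choice of Acly used the contrast between withdrawal and doxycycline, its values are given as a description with no test in any comparison.

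RNA came from mouse NIH3T3 fibroblasts, an immortalised line, that carried the oncogenes c-myc and Ha-ras behind a Tet-off promoter, which doxycycline keeps silent. Every culture also made IRF-1hER, a fusion of the transcription factor IRF-1 that estradiol activates, so estradiol was never applied to cells without the fusion. The doxycycline group (oncogenes off) received 2 µg/ml doxycycline, the withdrawal group (oncogenes on) received no agent, and the estradiol group (oncogenes on, IRF-1 active) received estradiol for 48 h after withdrawal, at 1 mM as the labels state it. Each group had 2 arrays, and RNA was extracted by RNeasy for replicate 1 and by TRIzol for replicate 2. The title of doxycycline replicate 2 also names estradiol, while its treatment entry gives doxycycline alone. Doxycycline itself differs between the groups with the oncogenes off and on, so its own effects cannot be told apart from theirs. Whether replicates came from separate cultures is not stated, so the p-values cover nothing beyond the spread among these arrays, and that spread may be technical.

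Values are MAS5 signals, the brightness of a probe set on a linear scale, and 2 arrays a group limit their precision. The withdrawal arrays differed more from each other than the arrays of either other group did. They differed at least 2-fold in 920 of 7453 tested probe sets, against 283 for the doxycycline and 250 for the estradiol arrays. Withdrawal replicate 2 differed from doxycycline replicate 1 in 324. It differed from doxycycline replicate 2 in 582 and from estradiol replicate 2 in 649. Withdrawal replicate 1 and estradiol replicate 1 differed in 16. Summed signals of 11 fibroblast markers were 17474 to 31599, with Col1a1 at 4211 or more on every array, although the probe set of Vim read only 5.9 to 40.7. Adipocytes are a lipogenic cell type that fibroblast lines can form, and their defining markers Adipoq, Fabp4 and Pparg stayed at or under 17.9, 24.4 and 2.2. The 3 adipocyte markers that passed the dim filter were Lep at 32 to 203, Cebpa at 29.4 to 84.4 and Lpl at 26 to 82. The summed signal of 9 adipocyte markers was 308 and 324 in the doxycycline group, 204 and 334 upon withdrawal, and 265 and 263 under estradiol. In such bulk samples fewer cells of a type and less RNA per cell cannot be told apart.

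Citrate made in mitochondria leaves them through the carrier encoded by Slc25a1, and ATP citrate lyase, encoded by Acly, splits it into acetyl-CoA and oxaloacetate. Acetyl-CoA carboxylase makes malonyl-CoA, from which fatty acid synthase (Fasn) builds palmitate with NADPH that malic enzyme (Me1) helps to supply. Elovl6 lengthens palmitate to stearate, and the stearoyl-CoA desaturases Scd1 and Scd2 turn saturated into monounsaturated fatty acids. Srebf1 encodes SREBP-1, a transcription factor that switches on many of these genes. Proliferating cells use the pathway to make membrane lipid.

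The promoter windows of Acly, Fasn and Slc25a1 are shown because these genes gave the 3 different patterns described below, a difference between groups, a difference within 1 replicate number and nearly level signals. RefSeq windows (GRCm38.p6) were found for 6 of the 8 measured genes, all but Scd1 and Scd2. Each line holds the 250 bases before the annotated start, 5′ to 3′ on the strand of the gene. Capitals mark matches on either strand to CACGTG (the E-box that Myc and Max, among others, bind), TCACNCCAC (a sterol response element, bound by SREBP), CCAAT (NF-Y) and GGGCGG (Sp1). The Acly window lies at chr11:100528001-100528250, that of Fasn at chr11:120824548-120824797 and that of Slc25a1 at chr16:17928220-17928469, all on the minus strand.
Acly: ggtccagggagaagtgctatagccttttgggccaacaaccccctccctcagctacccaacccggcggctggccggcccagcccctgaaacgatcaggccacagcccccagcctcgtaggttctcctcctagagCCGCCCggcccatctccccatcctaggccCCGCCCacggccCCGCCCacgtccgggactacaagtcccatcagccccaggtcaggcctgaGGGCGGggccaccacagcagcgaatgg
Fasn: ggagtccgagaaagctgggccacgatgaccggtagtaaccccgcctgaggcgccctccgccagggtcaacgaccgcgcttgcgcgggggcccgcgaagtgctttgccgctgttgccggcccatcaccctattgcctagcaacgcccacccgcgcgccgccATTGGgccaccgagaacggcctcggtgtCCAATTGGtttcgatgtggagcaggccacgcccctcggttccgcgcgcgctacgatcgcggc
Slc25a1: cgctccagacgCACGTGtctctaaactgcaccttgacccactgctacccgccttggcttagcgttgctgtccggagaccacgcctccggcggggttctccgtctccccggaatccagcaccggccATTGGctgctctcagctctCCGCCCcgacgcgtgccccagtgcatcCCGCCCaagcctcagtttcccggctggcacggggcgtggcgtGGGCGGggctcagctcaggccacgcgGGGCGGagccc
The Acly window held 4 matches to GGGCGG, which 32.7% of all 32851 windows of this length contain at least once. The Fasn window held 3 matches to CCAAT, of which the pair at 62 and 59 bases before the start overlap on opposite strands, against 33.8% of windows with any. The Slc25a1 window held 1 E-box, 239 bases before the start, which 6.02% of windows contain, as well as 1 CCAAT and 4 GGGCGG. TCACNCCAC, found in 1.05% of windows, was in none of the windows of the 6 measured genes. A match describes letters in a window and is not evidence of binding.

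Acly (probe set 160207_at), the gene of the acetyl-CoA step, had signals of 905 and 711 in the doxycycline group, 1738 and 1920 upon withdrawal, and 1881 and 1583 under estradiol. All 4 arrays with the oncogenes on lay above both doxycycline arrays. The ratio of mean signals between withdrawal and doxycycline was 2.26, with 1.92 in replicate 1 and 2.70 in replicate 2. On the log2(signal + 32) scale, on which all log2 values here are given, the difference was 1.16 (SE 0.28), and 1.08 (SE 0.28) between estradiol and doxycycline. Withdrawal and estradiol arrays overlapped, with a difference of -0.08 (SE 0.28). Leaving out any 1 array gave 0.99 to 1.32 for withdrawal and 0.91 to 1.24 for estradiol, each against doxycycline. Acly was picked for its higher signal after withdrawal on these arrays, and both comparisons share the doxycycline arrays. Its differences and ranges are therefore a description only.

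Slc25a1, the carrier that feeds Acly with citrate, had nearly level signals. Its brighter probe set, 94807_at, read 1205 and 1115 in the doxycycline group, 1058 and 1379 upon withdrawal, and 1063 and 1287 under estradiol, so the groups overlapped. The log2 difference was 0.06 (SE 0.29, adjusted p = 0.991 in limma, as for all adjusted p below) for withdrawal and 0.01 (SE 0.29, adjusted p = 0.993) for estradiol, each against doxycycline. Withdrawal replicate 2 was the highest array of both Slc25a1 probe sets, at 625 in the dimmer one (162358_i_at) against 335 to 422 elsewhere.

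Me1 (101082_at), the NADPH-producing malic enzyme, had signals of 121 and 113 in the doxycycline group, 129 and 227 upon withdrawal, and 171 and 348 under estradiol. The doxycycline arrays were the lowest of the 6, and withdrawal and estradiol arrays overlapped. Its log2 difference was 0.46 (SE 0.37, adjusted p = 0.935) for withdrawal, split into 0.08 for replicate 1 and 0.84 for replicate 2. Estradiol differed from doxycycline by 0.90 (SE 0.37, adjusted p = 0.341), with 0.41 and 1.39. Without estradiol replicate 2 the latter was 0.45, and without withdrawal replicate 2 the former was 0.12.

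**Figure D1:**
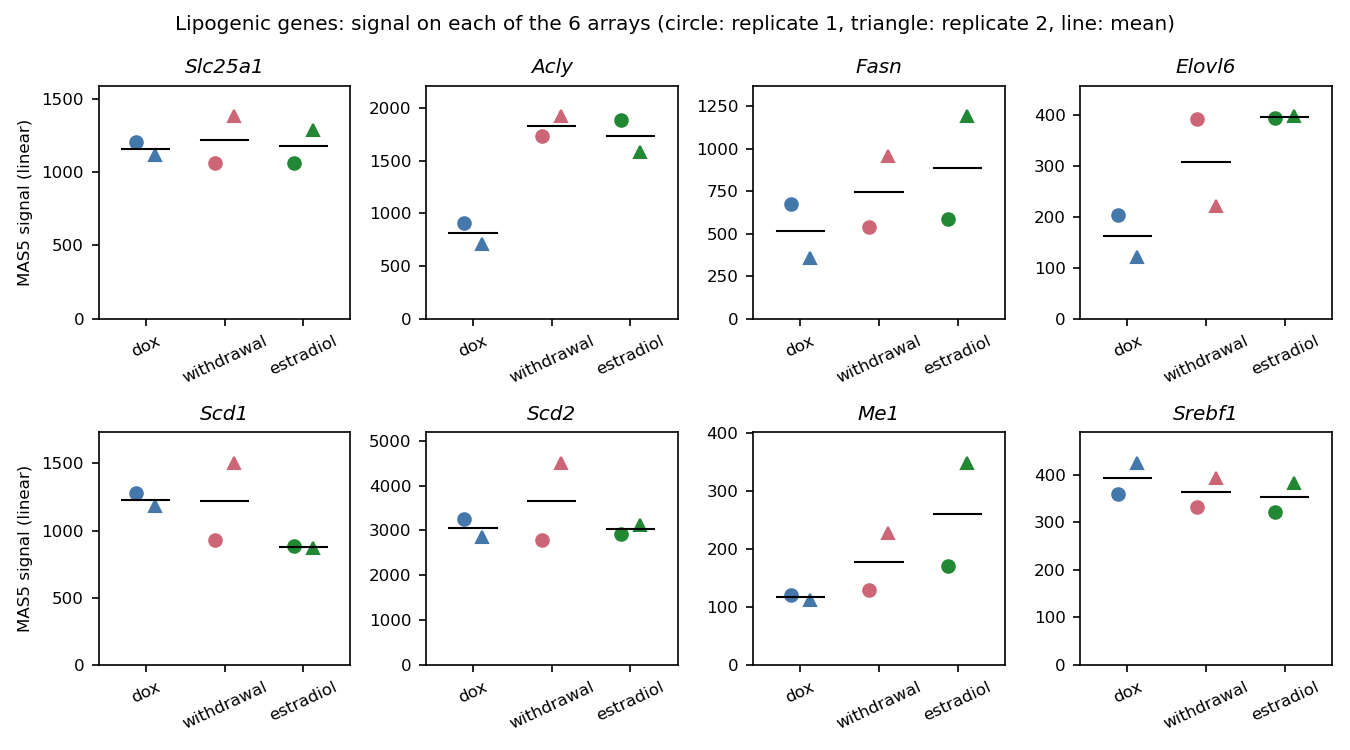
MAS5 signal (linear axis from 0) of the brightest probe set of each of the 8 genes, by group (dox, doxycycline); circles are replicate 1, triangles replicate 2 and lines the mean of the 2 arrays. Acly lies at 711 and 905 with doxycycline and at 1583 or more on the other 4 arrays, while the groups of Fasn, at 354 to 1191, overlap.

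Fasn (98575_at), the synthase itself, gave opposite differences in the 2 replicate numbers. Its signals were 672 and 354 in the doxycycline group, 539 and 956 upon withdrawal, and 588 and 1191 under estradiol, and all 3 groups overlapped. Withdrawal against doxycycline came to 0.53 (SE 0.46, adjusted p = 0.935), made of -0.30 in replicate 1 and 1.36 in replicate 2. Estradiol against doxycycline came to 0.74 (SE 0.46, adjusted p = 0.493), made of -0.18 and 1.66. Without doxycycline replicate 2, the array whose title also names estradiol, these values were 0.09 and 0.31, and without estradiol replicate 2 the latter was 0.25.

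Elovl6, the elongase, had higher signals than with doxycycline in both replicate numbers and in both of its probe sets, though no difference passed the test. The brighter probe set, 103665_at, read 204 and 122 in the doxycycline group, 393 and 222 upon withdrawal, and 395 and 398 under estradiol. The other, 94418_at, read 111 and 59.0, 169 and 136, and 142 and 183 in the same order. In both probe sets every array with the oncogenes on lay above both doxycycline arrays, by a small margin at withdrawal replicate 2 in the brighter one. Withdrawal exceeded doxycycline by 0.79 (SE 0.35, adjusted p = 0.925) in the brighter and by 0.68 (SE 0.30, adjusted p = 0.925) in the dimmer probe set. Estradiol exceeded doxycycline by 1.17 (SE 0.35, adjusted p = 0.257) in the brighter and by 0.76 (SE 0.30, adjusted p = 0.338) in the dimmer. The brighter value ranged from 0.86 to 1.48 when 1 array was left out, with an adjusted p of 0.0685 to 0.909 over all settings, and withdrawal against doxycycline fell to 0.41 without withdrawal replicate 1 and 0.48 without doxycycline replicate 2. Estradiol exceeded withdrawal by 0.38 (SE 0.35, adjusted p = 1.00), of which replicate 2 showed 0.76 and replicate 1 0.0037, and by 0.08 (SE 0.30, adjusted p = 1.00) in the other probe set.

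The desaturases Scd1 and Scd2 are close relatives in sequence, and probes of one could read the other. The brightest Scd1 probe set, 94056_at, read 1278 and 1181 in the doxycycline group, 929 and 1504 upon withdrawal, and 886 and 869 under estradiol. Both estradiol arrays were lower than the other 4, though close to withdrawal replicate 1. Estradiol against doxycycline gave -0.47 (SE 0.31, adjusted p = 0.528), and withdrawal against doxycycline gave -0.05 (SE 0.31, adjusted p = 0.991), split into -0.45 for replicate 1 and 0.34 for replicate 2. Estradiol against withdrawal gave -0.42 (SE 0.31, adjusted p = 1.00), and -0.08 without withdrawal replicate 2.

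The other Scd1 probe sets did not show the same order. The second, 94057_g_at, read 770 and 768 in the doxycycline group, 619 and 1515 upon withdrawal, and 544 and 807 under estradiol, so all groups overlapped. The third, 94058_r_at, was dim, at no more than 49.4, and had its lowest arrays in the doxycycline group, with 0.43 (SE 0.28, adjusted p = 0.527) for estradiol against doxycycline. The direction of the Scd1 differences therefore depended on the probe set.

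Both Scd2 probe sets were highest at withdrawal replicate 2. Its brighter probe set, 95758_at, read 3248 and 2844 in the doxycycline group, 2791 and 4505 upon withdrawal, and 2914 and 3126 under estradiol, and the groups overlapped. The log2 difference was 0.22 (SE 0.31, adjusted p = 0.954) for withdrawal against doxycycline and -0.12 without withdrawal replicate 2. It was -0.01 (SE 0.31, adjusted p = 0.994) for estradiol against doxycycline. The second Scd2 probe set, 162077_f_at, was nearly level at 885 to 1024, a ratio of highest to lowest of 1.16. Its withdrawal arrays lay above all the others, though withdrawal replicate 1 (994.4) only just above doxycycline replicate 2 (992.5).

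Srebf1 (93264_at), the regulator, had signals of 360 and 425 in the doxycycline group, 332 and 393 upon withdrawal, and 323 and 383 under estradiol. All 3 groups overlapped, and the highest array was 1.32 times the lowest. The differences were -0.11 (SE 0.27, adjusted p = 0.969) for withdrawal and -0.14 (SE 0.27, adjusted p = 0.851) for estradiol, each against doxycycline. The transcript level says nothing of how much SREBP-1 is processed into its active form, which was not measured here.

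**Figure D2:**
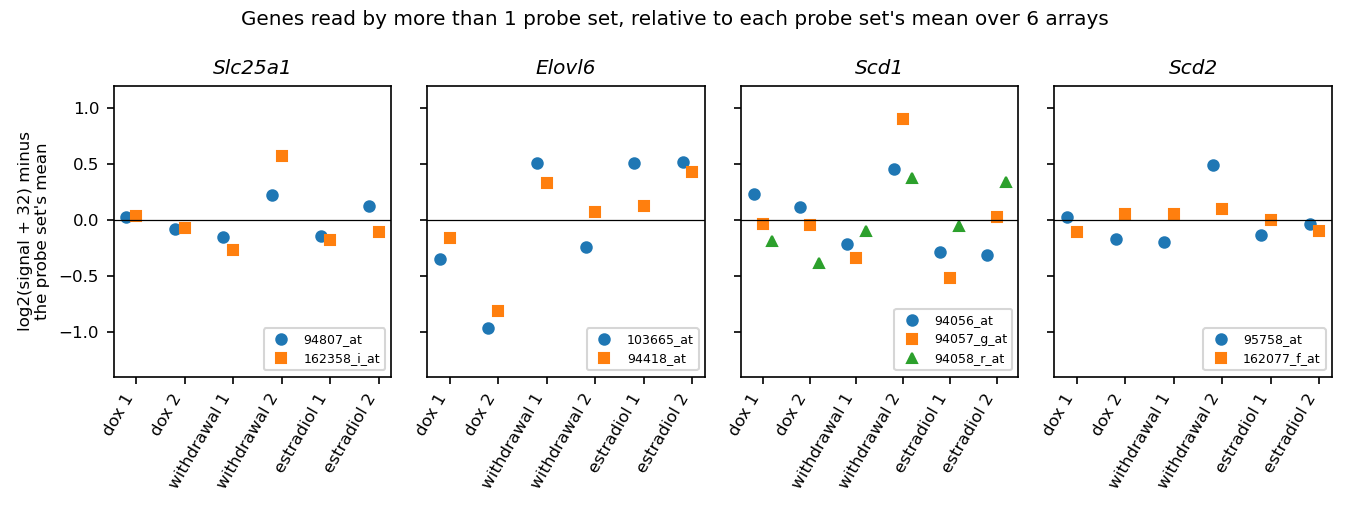
Log2(signal + 32) on each array minus the probe set's mean over the 6 arrays, for the 4 genes read by more than 1 probe set; each symbol is a probe set. Both Elovl6 probe sets lie lowest at doxycycline replicate 2, at signals of 122 and 59.0, and the 3 probe sets of Scd1 differ in their order over the groups.

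Withdrawal against doxycycline asks what switching on c-myc and Ha-ras changed. No member passed the adjusted threshold of 0.05, nor did any of the 7453 probe sets tested (0% called), where the smallest adjusted p was 0.835 and 326 had an unadjusted p under 0.05. Of the 7 genes other than Acly, 5 had a higher and 2 a lower mean, with a median difference of 0.22 beside 0.014 over all probe sets tested. With Acly, which was picked on this contrast, the median over the 8 genes was 0.34 (6 higher), a description only. Acly, Me1 and Elovl6 had groups that did not overlap and were higher, as were 16.9% of all tested probe sets, and 0 members were lower without overlap, against 15.0% of all. Acly belongs to the count by its choice, and 2 of the other 7 were higher. Over the 8 genes replicate 1 gave a median of -0.15 and replicate 2 one of 0.69. The median was -0.002 without withdrawal replicate 2, with 4 of 8 genes higher, 0.11 without doxycycline replicate 2 and 0.49 without withdrawal replicate 1, with 8 of 8 higher.

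Estradiol against withdrawal asks what active IRF-1 changed with the oncogenes on. No member and no other probe set was called (0%), the smallest adjusted p was 1.00, and 52 probe sets had an unadjusted p under 0.05. The median over the 8 genes was -0.04, beside 0.006 over all probe sets, with 3 higher and 5 lower. Elovl6 was higher without overlap, as were 11.6% of all tested probe sets, and Scd1 lower, as were 10.3%. The closest arrays of Elovl6 were 394.5 with estradiol and 393.4 upon withdrawal, and those of Scd1 886 and 929. The other probe sets of both genes overlapped. The median lay between -0.17 without withdrawal replicate 1 and 0.09 without withdrawal replicate 2, so its sign depended on single arrays.

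By the treatment entries, estradiol against doxycycline sets both switches against none, although the title of doxycycline replicate 2 also names estradiol. It shares the doxycycline arrays with the first comparison. No probe set was called (0%), the smallest adjusted p was 0.255, and 1041 had an unadjusted p under 0.05. The median over the 8 genes was 0.38 with Acly and 0.01 without it, beside 0.004 over all probe sets. Acly, Me1 and Elovl6 were higher without overlap, against 27.0% of all tested probe sets. Scd1 was lower, in its brightest probe set only, against 24.7%. Higher members other than Acly were 2 of 7 (28.6%), near the background, and lower members 1 of 8 (12.5%). These counts, like those above, take the brightest probe set of each gene. The dimmer Slc25a1 probe set was also lower without overlap, at 360 and 379.6 with estradiol against 422.1 and 390 with doxycycline. The median over the 8 genes was -0.15 in replicate 1 and 0.66 in replicate 2, 0.14 without doxycycline replicate 2 and 0.10 without estradiol replicate 2. When the withdrawal arrays were left out of the fit 132 probe sets were called, and none of the 7 genes other than Acly was among them, the smallest adjusted p of these being 0.0691 for Elovl6.

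**Figure D3:**
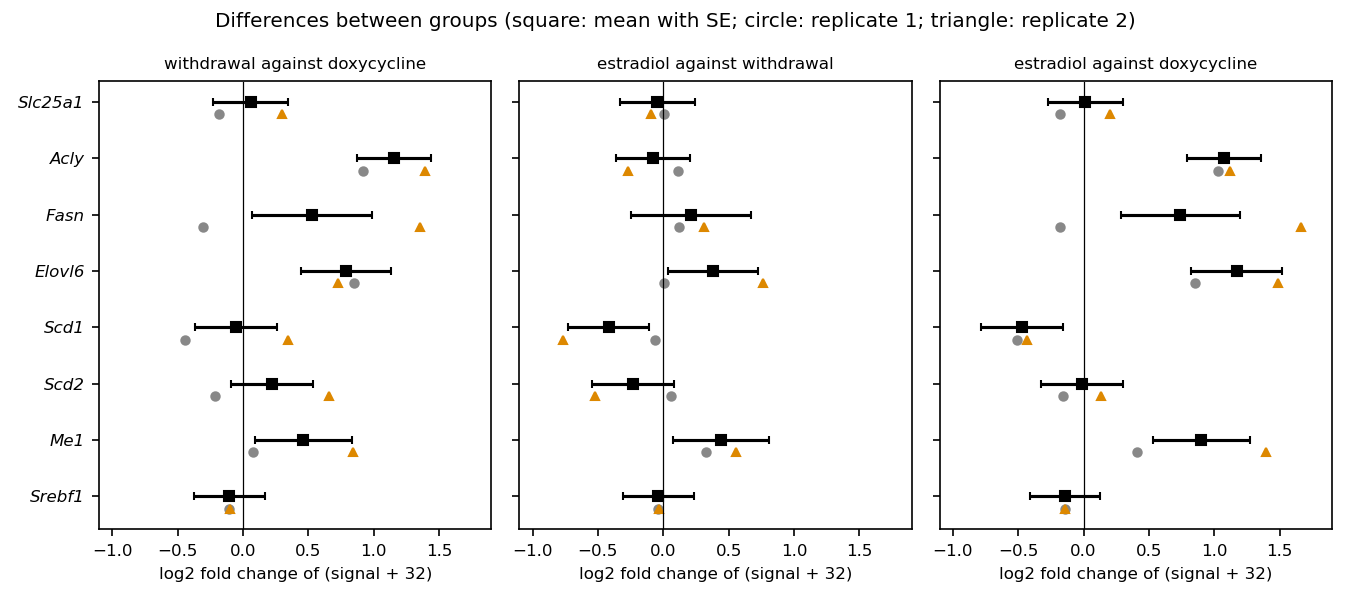
Log2 difference of each gene's brightest probe set in the 3 comparisons, on the log2(signal + 32) scale; squares are the fitted difference with its standard error from limma, circles the difference within replicate 1 and triangles that within replicate 2. Fasn has -0.30 and 1.36 for withdrawal against doxycycline, while Acly has 0.92 and 1.39.

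The members' signals differed between arrays of the same group. After each probe set's own mean was subtracted, the median over the 8 genes was -0.01 and -0.33 on the doxycycline arrays, -0.17 and 0.40 on the withdrawal arrays, and -0.14 and 0.17 on the estradiol arrays. Withdrawal replicate 2 held the highest signal of 4 genes (Acly, Slc25a1, Scd1 and Scd2), and 22% of all tested probe sets had their highest signal there. Doxycycline replicate 2 held the lowest signal of 4 genes (Acly, Me1, Fasn and Elovl6), against 20.8% of all tested probe sets. The same medians over 22 cell division genes were -0.38 and -1.26, 0.63 and -0.56, and 0.69 and 0.83 in that order. The median over the lipogenic genes was thus highest at withdrawal replicate 2, where that of the cell division genes was below 0. That cell division median was still above the -1.26 of doxycycline replicate 2. The lipogenic pattern was shared by the cholesterol synthesis genes, whose median was also highest at withdrawal replicate 2 (0.25) and lowest at doxycycline replicate 2 (-0.26). Glycerolipid synthesis was highest at withdrawal replicate 2 as well (0.14), and the other lists of the pathway were highest on other arrays. Higher means after withdrawal than with doxycycline were found in 22 of 22 cell division genes, 21 of them in both replicate numbers. Over all probe sets tested 51.8% had a higher mean. Elovl6 lay at -0.34 and -0.96, 0.51 and -0.24, and 0.51 and 0.52 in the same order. These values are from its brighter probe set, whose sign was that of the cell division median on every array. The other Elovl6 probe set, 94418_at, lay at 0.07 at withdrawal replicate 2, where the cell division median was -0.56. Over 10 fibroblast markers the medians were 0.32 and 0.25, -0.32 and 0.38, and -0.32 and -0.46. The part of extraction method, growth state or cell makeup in the members' values was not tested.

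**Figure D4:**
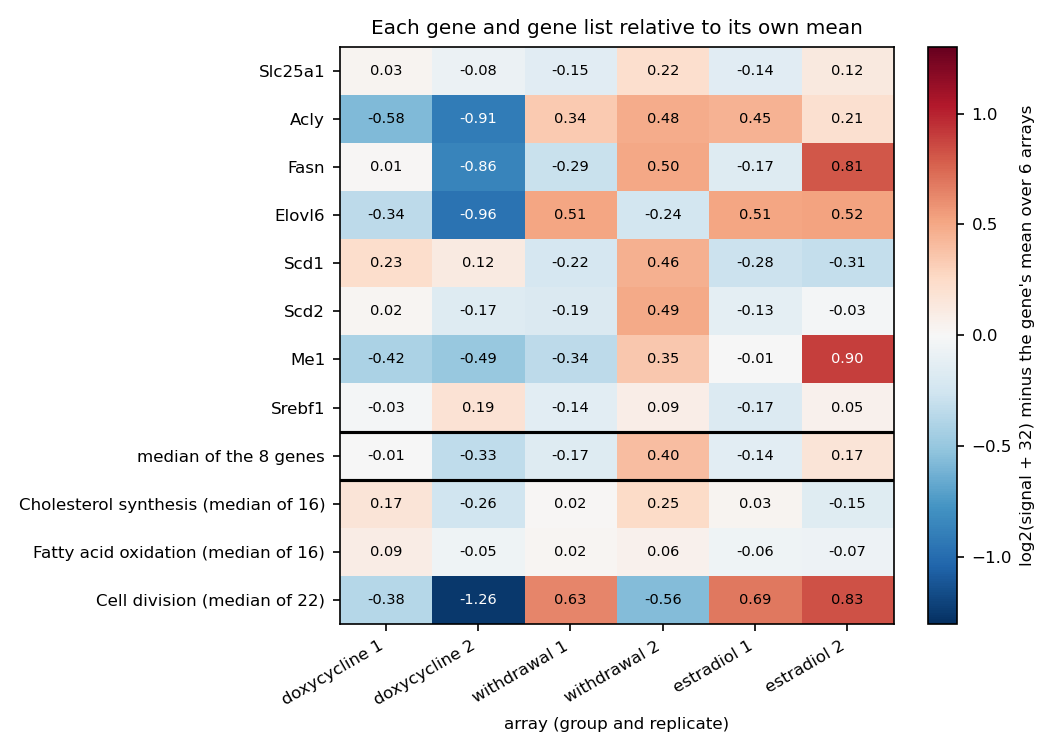
Heat map of log2(signal + 32) minus the probe set's mean over the 6 arrays, with arrays in columns; the upper 8 lines are the lipogenic genes, followed by their median and the medians of 3 other lists. The lipogenic median is highest at withdrawal replicate 2 (0.40), where the cell division median is -0.56, against -1.26 at doxycycline replicate 2.

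Other genes of the pathway were read from lists, and in none of them did a gene pass the test in any comparison. Of 15 tested genes of citrate and acetyl-CoA supply, 8 were higher after withdrawal (median 0.19) and 7 with estradiol (median -0.05), each against doxycycline. Over all tested probe sets 51.8% and 50.4% were higher in the same comparisons, the background for the counts of every list. Of 7 genes of NADPH supply, 6 and 5 were higher (medians 0.36 and 0.28), with Idh1 counted in both lists. Mthfd2, a mitochondrial folate enzyme, read 201 and 345 in the doxycycline group, 693 and 225 upon withdrawal, and 658 and 746 under estradiol, with 1.31 (SE 0.48, adjusted p = 0.308) for estradiol against doxycycline. Its withdrawal replicate 2 lay within the doxycycline range.

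Of 10 tested genes of elongation, desaturation and activation, 9 and 6 were higher (medians 0.18 and 0.11). The 9 include Elovl1 at 0.024 (SE 0.24) and Elovl5 at 0.028 (SE 0.29), which were nearly level. Acsl5, an acyl-CoA synthetase related to the unmeasured Acsl1, read 62.0 and 125 in the doxycycline group, 243 and 101 upon withdrawal, and 287 and 448 under estradiol. Estradiol against doxycycline gave 1.68 (SE 0.42, adjusted p = 0.255) for it, and both estradiol arrays were the highest of the 6. Of 12 tested genes of glycerolipid synthesis, 6 and 5 were higher (medians -0.002 and -0.16). Pcyt2, an enzyme of phosphatidylethanolamine synthesis, read 451 and 573 in the doxycycline group, 297 and 229 upon withdrawal, and 299 and 203 under estradiol. Its doxycycline arrays were the highest of the 6, with -0.88 (SE 0.30, adjusted p = 0.925) for withdrawal and -0.95 (SE 0.30, adjusted p = 0.276) for estradiol.

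Fatty acid oxidation runs against synthesis, and 7 of its 16 tested genes were higher in either comparison with doxycycline (medians -0.04 and -0.05). Cpt1a, which admits long-chain fatty acids to mitochondria and is inhibited by malonyl-CoA, read 943 and 1054 in the doxycycline group, 318 and 836 upon withdrawal, and 355 and 303 under estradiol. Its difference was -1.51 (SE 0.42, adjusted p = 0.255) for estradiol and -0.90 (SE 0.42, adjusted p = 0.925) for withdrawal, and all 4 arrays with the oncogenes on were lower than both doxycycline arrays. Acaa1a, a peroxisomal thiolase, gave -0.98 (SE 0.30, adjusted p = 0.260) for estradiol. Hadh, a mitochondrial enzyme of beta-oxidation, went the other way, at 342 and 318 in the doxycycline group, 498 and 359 upon withdrawal, and 510 and 622 under estradiol, with 0.72 (SE 0.29, adjusted p = 0.338) for estradiol. Of 16 cholesterol synthesis genes, which also draw on cytosolic acetyl-CoA, 11 were higher after withdrawal (median 0.15) and 7 with estradiol (median -0.04). The withdrawal median was 0 in replicate 1 and 0.425 in replicate 2, with 7 genes higher and 1 lower in both replicate numbers. Of 12 genes that control lipogenesis, 8 and 7 were higher (medians 0.08 and 0.04).

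Likeness to Acly was measured as the mean absolute difference over the 6 arrays between log2(signal + 32) values from which each probe set's own mean was subtracted, with 5661 genes compared. The nearest were Ywhae (0.159), Ddx41 (0.175), Rag1 (0.183), Caprin1 (0.19), Orc1 (0.195) and Tbcel (0.199). Ddx41, Rag1, Orc1 and Tbcel were dim, with signals as low as 25, 20.8, 5.7 and 19.7 on doxycycline arrays, under the offset of 32. Caprin1, the brightest of these nearest genes, read 417 and 405 in the doxycycline group, 736 and 700 upon withdrawal, and 708 and 761 under estradiol. Of the other members Elovl6 came nearest, at rank 81 (0.257), followed by Fasn at 1379 and Me1 at 1449, and Scd1 came last at 4112. The points are 6 arrays that share their groups, so the ranks are a description.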

How the data were processed

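Total RNA of 6 samples was hybridised as biotin-labelled cRNA to 1-colour Affymetrix arrays, 1 array a sample. The deposited values are MAS5 signals, an intensity on a linear scale, per the submitters' processing notes; the settings of that software were not stated. Trimmed means of 150.087 to 150.101 on the 6 arrays show a common scaling. Arrays were scaled to a common trimmed mean (2% left out at each end), and log2(signal + 32) was tested with limma 3.58.1 in R 4.3.3, with 1 mean per group over 6 arrays, an intensity trend and two-sided Benjamini-Hochberg adjusted p-values. The 66 controls and the dimmest 40% of probe sets (signal under about 29) were left out. The offset understates changes of dim probe sets. Gene names came from the platform annotation. A gene was read by its brightest probe set. Up to 4 genes of each list with the largest difference per comparison could be named. The members and lists were chosen with earlier results of these data known. The script was tested on simulated data whose added differences were larger than any group difference of a member here. That test does not show whether differences of the members' size would be called. Replicate numbers share an extraction method per the labels' protocols, which pairs the arrays; deviations from group means correlated at -0.00727 (withdrawal, doxycycline), 0.449 (estradiol, withdrawal) and -0.0284 (estradiol, doxycycline). Promoter windows are RefSeq's.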

Additional observations from a re-analysis of the deposited data

How the results depend on the processing

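With 2 arrays a group, single arrays set many values. None of the 7 genes other than Acly passed the test under any setting run (offsets of 16 and 64, no dim filter, quantile normalization, no intensity trend, replicate block, only the 2 groups compared, 1 array left out, other probe set). The replicate block called 0 probe sets in all 3 comparisons and changed no call, with 435, 64 and 1219 at an unadjusted p under 0.05 for withdrawal against doxycycline, estradiol against withdrawal and estradiol against doxycycline. With only the 2 groups compared, estradiol against doxycycline called 132 probe sets. With 1 array left out, where the lone array of a group is assumed to vary like the others, the calls ranged from 0 to 133 for estradiol against doxycycline (133 without withdrawal replicate 2, 131 without withdrawal replicate 1, 28 without doxycycline replicate 1), from 0 to 17 for estradiol against withdrawal (17 without withdrawal replicate 1) and from 0 to 26 for withdrawal against doxycycline (26 without doxycycline replicate 1). The cause was not tested. Of 327 gene values under alternatives 24 changed sign, 19 with 1 array left out, 5 with another probe set and 0 under the other settings. With another probe set, Scd1 gave 0.324 and 0.422 for withdrawal against doxycycline, 0.007 for estradiol against withdrawal and 0.429 for estradiol against doxycycline, and Slc25a1 gave -0.124 for the last. With 1 array left out, withdrawal against doxycycline ranged from -0.391 to 0.286 for Scd1, -0.122 to 0.563 for Scd2, -0.128 to 0.245 for Slc25a1 and -0.217 to 0.007 for Srebf1. Estradiol against withdrawal ranged from -0.202 to 0.042 for Acly, -0.276 to 0.704 for Fasn, -0.013 to 0.896 for Me1, -0.573 to 0.112 for Scd2, -0.232 to 0.141 for Slc25a1 and -0.15 to 0.077 for Srebf1. Estradiol against doxycycline ranged from -0.105 to 0.085 for Scd2 and -0.122 to 0.148 for Slc25a1. The median over the 8 genes ranged from -0.166 to 0.094 for estradiol against withdrawal.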
